A study of Mus musculus with 160 samples.

Results

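Solute carriers (the Slc genes) were followed in single stromal cells of the mouse bone marrow. The table named 367 Slc genes or joint rows, and the 94 described here had a mean of 1 FPKM or more over the Old or over the Young cells. FPKM are fragments per kilobase of transcript scaled to the mapped fragments of the cell, so levels can be compared between genes of a cell. The summed FPKM of named genes was uneven between cells, from 22242.5 to 7.38e+06. It was over 3 times the median of all cells in 9 Old and 13 Young cells, which bears on every mean and highest FPKM below. The measured means chose the members, and their levels are given as a description. The last rows outside the rule were Slc44a3 and Slc44a2, with a higher mean of 0.927 and 0.922 FPKM, and the first inside were Slc25a42 and Slc25a27, with 1.01 and 1.03 FPKM. Of the 94 members, 91 are carriers and 3 (Slc4a1ap, Slc9a3r1 and Slc9a3r2) encode adaptor proteins that only bear a carrier's name. Among the carriers is a joint row of Mrps6 and Slc5a3, whose value cannot be given to either gene alone.

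Solute carriers are membrane proteins that move amino acids, sugars, ions, metals, nucleosides and vitamins across the cell surface and across the membranes of organelles. Many at the surface use the sodium gradient or exchange one solute for another, the Slc25 family serves mainly the inner mitochondrial membrane, and the Slc35 family brings nucleotide sugars into the endoplasmic reticulum and Golgi. Marrow stromal cells that carry the leptin receptor secrete matrix and the factors that hold blood stem cells, and take up the substrates for these products through carriers.

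The cells came from C57BL/6J mice labelled 24 months old (Old, 78 cells) and 9 weeks old (Young, 82 cells). The protocol text gives 2 years and 10 weeks. All cells of both ages had been sorted as CD45-Ter119-CD31-LepR+CD140a+ and captured 1 to a well on a microfluidic chip (Fluidigm C1), and no genetic change or treatment is labelled. The labels do not say which animal a cell came from. Each age is therefore treated as 1 sample, no test between the ages was possible, and every difference below lacks a replicate check.

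At least 3 of 8 marrow stroma markers were listed in 71 of 78 Old and 81 of 82 Young cells. Lepr, the gated leptin receptor, was at 1 FPKM or more in 71 Old and 78 Young cells, Cxcl12, a chemokine of the blood stem cell niche, in 77 and 82, whereas Pdgfra, which encodes the gated CD140a, was listed in 30 and 28. None of the 6 endothelial and 4 megakaryocyte markers was listed in any cell, and 0 cells held 3 or more markers of the hematopoietic, erythroid, osteoblast, cartilage, smooth muscle or Schwann lists. Xist was listed in 54 Old and 0 Young cells and at least 1 of 4 Y-linked genes in 0 Old and 34 Young cells, so age, sex-linked RNA and, since the wells were counted per age, capture cannot be told apart. The depth per cell is unknown, and the number of named genes at 1 FPKM had a median of 1160 in Old cells (range 193 to 2779) and 1114.5 in Young cells (129 to 2129). A gene is called listed in a cell at 1 FPKM or more, since an FPKM of 0 can be a failed estimate. Intervals are exact (Clopper-Pearson) 95% intervals of the share of cells and cover counting error only.

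Windows before the start of a gene are shown for carriers on which the results turn, the joint Mrps6 and Slc5a3 row and Slc38a2, which were lower in Old cells, and Slc39a1, which was listed about equally at both ages. Each holds the 250 bases before the start in RefSeq (build GRCm38.p6, whereas the submitters' processing notes name mm9), and capitals mark matches to the GC box GGGCGG on either strand. The Slc5a3 window lies at chr16:92058072-92058321 on the plus strand, the Slc38a2 window at chr15:96699729-96699978 on the minus strand and the Slc39a1 window at chr3:90247942-90248191 on the plus strand.
Slc5a3: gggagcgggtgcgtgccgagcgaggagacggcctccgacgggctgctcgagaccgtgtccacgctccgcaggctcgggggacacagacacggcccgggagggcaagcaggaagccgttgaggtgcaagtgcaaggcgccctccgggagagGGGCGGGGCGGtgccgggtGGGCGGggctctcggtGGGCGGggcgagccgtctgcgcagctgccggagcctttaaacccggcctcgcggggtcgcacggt
Slc38a2: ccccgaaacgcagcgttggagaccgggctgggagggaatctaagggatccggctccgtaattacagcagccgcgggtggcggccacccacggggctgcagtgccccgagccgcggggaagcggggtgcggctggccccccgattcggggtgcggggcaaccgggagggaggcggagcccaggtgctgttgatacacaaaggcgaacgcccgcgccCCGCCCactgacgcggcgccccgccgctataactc
Slc39a1: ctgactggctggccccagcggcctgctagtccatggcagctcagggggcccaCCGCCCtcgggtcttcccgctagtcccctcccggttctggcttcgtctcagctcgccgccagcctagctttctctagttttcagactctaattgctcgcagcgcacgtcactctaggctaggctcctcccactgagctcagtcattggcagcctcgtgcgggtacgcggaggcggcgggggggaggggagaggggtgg

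The annotated start of Mrps6 lies 14 bases from that of Slc5a3 on the same strand, and 236 of the 250 bases are common to both windows. These 2 genes therefore have nearly the same window as well as a joint row. The Slc5a3 window has 4 GC boxes, 2 of them overlapping by a base, and the Slc38a2 and Slc39a1 windows have 1 each. Of the 69 members with a window in the table, 49 (71%) held GGGCGG on either strand in at least 1 window, against 35.4% of all 27025 genes with one. TATAAA was found for 6 members (8.7%, against 14.3% of all genes), CCAAT for 26 (37.7%, against 37.5%) and TGATGNAA, the core letters of an amino acid response element, for 2 (2.9%, against 3.91%). The 27025 genes were not limited to those with a mean of 1 FPKM here, as the members were, so the 2 shares are of unlike sets. A match describes letters in these windows only.

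Most members were listed in few cells. Across members the median share of cells was 5.13% in Old and 4.88% in Young cells, compared with 8.97% and 8.54% across all 7196 genes that met the same mean. In 65 of 94 members the share was under 10% at both ages, and in 36 over 50% of the FPKM of all cells lay in a single cell (38.3%, against 32.5% of all measured genes). Only 13 members were listed in 25% or more of the cells of either age, which is 13.8% of members and 17.7% of measured genes.

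The 13 widely listed members covered several substrates. 5 of them were listed in 50% or more of the cells of an age, and these were Slc6a6 (taurine), Slc39a1 (zinc), the Mrps6 and Slc5a3 row (myo-inositol for Slc5a3), Slc38a2 (neutral amino acids) and Slc26a7 (chloride and bicarbonate). The others included Slc25a4, Slc25a5 and Slc25a3 of mitochondria, Slc29a1 (nucleosides), Slc3a2 and Slc1a5 (amino acids) and Slc50a1 (sugars). The order of the shares differed between the ages. In Old cells Slc39a1 came first (60.3%), followed by Slc38a2 (44.9%), Slc25a4 (34.6%) and Slc3a2 (33.3%), and neighbours in this order had overlapping intervals. In Young cells Slc6a6 came first (69.5%), followed by Slc39a1 (59.8%), the Mrps6 and Slc5a3 row (58.5%), Slc38a2 (56.1%) and Slc26a7 (54.9%), and the intervals of these 5 overlapped.

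**Figure D1:**
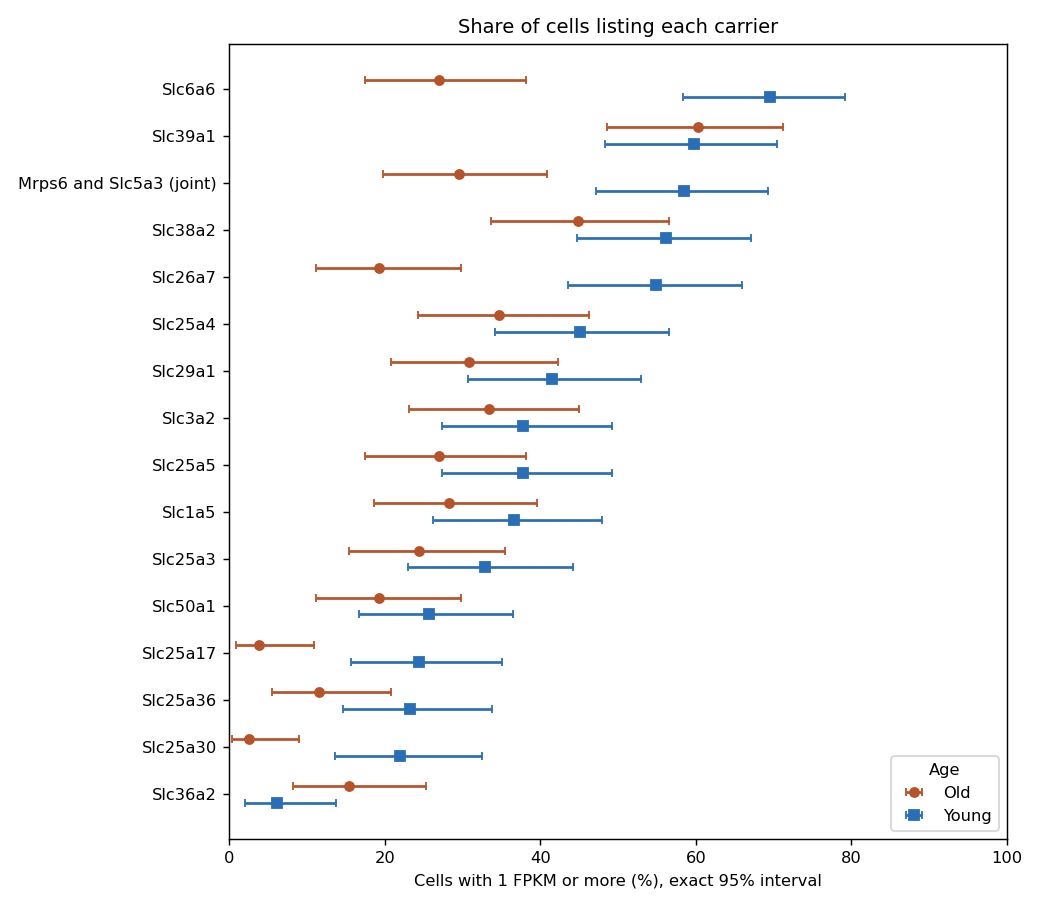
Share of Old (circles) and Young (squares) cells with 1 FPKM or more, on the x axis in percent, for 16 members listed in 25% or more of the cells of an age or differing by 0.5 or more in mean log2(FPKM + 1). Bars are exact 95% intervals. Slc6a6 lies at 26.9% in Old and 69.5% in Young cells, whereas Slc39a1 lies at 60.3% and 59.8%.

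The ages were compared by the difference of mean log2(FPKM + 1), Old minus Young, which weighs every cell alike. Of 94 members, 9 (9.57%) were lower in Old cells by 0.5 or more, against 4.88% of all measured genes, and 1 member (1.06%) was higher by 0.5 or more, against 3.89%. By the log2 ratio of mean FPKM, Old over Young, 41 members were lower and 30 higher by 0.5 or more, and by trimmed means, without the highest and lowest 5% of cells, 11 were lower and 8 higher. Over all members 36 (38.3%) had a higher mean log2 in Old cells, against 48.9% of measured genes, and the median difference was -0.05, against -0.01. The mean of 1 FPKM was met at both ages by 37 members, only in Old cells by 25 and only in Young cells by 32. The rule that chose the members therefore set part of these directions. Without that filter 107 of 219 Slc names (48.9%) were higher in Old cells, and 9 (4.11%) were lower by 0.5 or more. Shares over all genes were not computed without the filter. Since the members were chosen with earlier results of these data known, these counts describe the list and test nothing.

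Slc6a6, the sodium- and chloride-coupled taurine transporter, had the difference furthest below 0. Its FPKM had a lowest value of 0, a median of 0.0128 and a highest value of 118 in Old cells, against 0, 7.29 and 151 in Young cells. The ranges overlapped fully, and the upper quartile was 1.73 FPKM in Old and 29.7 FPKM in Young cells. It was listed in 21 of 78 Old cells (26.9%, interval 17.5 to 38.2) and 57 of 82 Young cells (69.5%, 58.4 to 79.2). Among the cells that listed it, the median was 5.02 FPKM in Old and 18.1 FPKM in Young cells, so both the share of cells and the level within them were lower in Old cells. Mean log2 was 0.91 ± 1.54 in Old and 2.94 ± 2.28 in Young cells (SD over cells, n = 78 and 82), a difference of -2.03. No cell held more than 7.47% of its summed FPKM.

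The lower Slc6a6 share was present in cells of few and of many genes. Among cells below the median gene number of their age, 5 of 39 Old (12.8%) and 22 of 41 Young cells (53.7%) listed it, and among the rest 16 of 39 (41%) and 35 of 41 (85.4%) did. The difference of mean log2 was -1.97 in the cells of fewer genes and -2.09 in those of more.

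The other members of the group of taurine, creatine and amine carriers were sparse. Slc18b1, a vesicular polyamine transporter, was listed in 5 Old and 2 Young cells. Slc6a20a, an imino acid transporter, was listed in 0 Old cells (exact upper limit 4.62%) and in 1 Young cell. Partner genes of taurine handling showed no difference of 0.5. Ado, which makes the taurine precursor hypotaurine, was listed in 2 Old and 10 Young cells (difference -0.34), and Csad, which makes hypotaurine from cysteine sulfinate, in 6 and 9 (-0.09). Nfat5, the transcription factor of the osmotic stress response, was listed in 27 Old and 21 Young cells (0.17), and Cdo1 in 0 and 0.

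**Figure D2:**
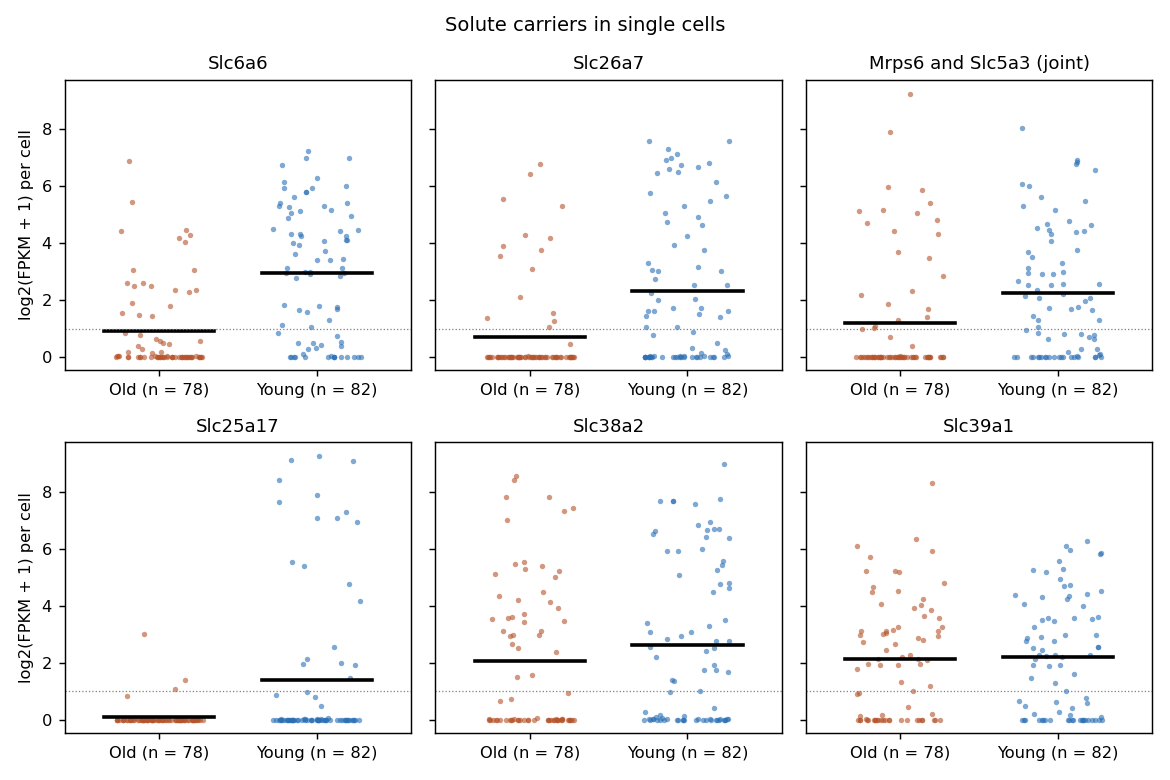
Each point is 1 cell, with log2(FPKM + 1) on the y axis, Old cells (n = 78) left and Young cells (n = 82) right for 6 carriers. Black bars are means and the dotted line marks 1 FPKM. The mean of Slc6a6 is 0.91 in Old and 2.94 in Young cells, and that of Slc39a1 is 2.12 and 2.20.

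Among anion and cation-chloride carriers, Slc26a7 differed most. This carrier exchanges chloride and bicarbonate and is best known from kidney, stomach and thyroid. Its FPKM ran from 0 to 108 with a median of 0 in Old cells, and from 0 to 194 with a median of 1.78 in Young cells. It was listed in 15 Old cells (19.2%, interval 11.2 to 29.7) and 45 Young cells (54.9%, 43.5 to 65.9), a difference of mean log2 of -1.62. Unlike Slc6a6, its median among listing cells was of similar size at both ages, 12.4 FPKM in Old and 14.4 FPKM in Young cells.

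The 5 remaining members of that group lay within 0.5. Slc12a2, the sodium-potassium-chloride importer NKCC1, was listed in 7 Old and 14 Young cells (difference -0.42). Slc12a4, a potassium-chloride exporter, was listed in 6 Old and 2 Young cells (0.17), and 83.8% of its summed FPKM lay in 1 Old cell. The bicarbonate carriers Slc4a7 (6 and 9 cells) and Slc4a3 (4 and 4) differed by -0.02 and 0.02.

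The joint row of Mrps6, a mitochondrial ribosomal protein, and Slc5a3, the sodium-coupled myo-inositol transporter, led the group of sugars and polyols. It ranged from 0 to 609 FPKM with a median of 0.00136 in Old cells, and from 0 to 261 FPKM with a median of 2.35 in Young cells. It was listed in 23 Old cells (29.5%, interval 19.7 to 40.9) and 48 Young cells (58.5%, 47.1 to 69.3), and the difference of mean log2 was -1.04. The means of FPKM were nearly equal, 16.04 in Old and 16.27 in Young cells, as 1 Old cell held 23.6% of the summed FPKM, and the median among listing cells was higher in Old (19.1 FPKM) than in Young cells (8.25 FPKM). Fewer Old cells listed the row, but those that did were not lower.

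All 6 members of the sugar and polyol group had a lower mean log2 in Old cells, against 51.1% of all measured genes. The differences ran from -1.04 to -0.0036, and Slc2a3 (-0.0036) and Slc37a4 (-0.02) hardly differed. By the log2 ratio of mean FPKM, Old over Young, Slc37a4 was higher in Old cells (1.37), and the other members were lower. Slc2a4 met the rule for members only through its Young cells. The shared sign therefore says little about the group as a whole. Slc50a1, a sugar exporter, was listed in 15 Old cells (19.2%) and 21 Young cells (25.6%) (-0.40). Glucose carriers were sparse: Slc2a3 (GLUT3) was listed in 5 Old and 4 Young cells and the insulin-sensitive Slc2a4 (GLUT4) in 0 and 2. The sugar phosphate carriers Slc37a3 (6 and 4 cells) and Slc37a4 (2 and 3) differed by -0.10 and -0.02. Of the genes of glucose and lactate use, Ldha, a lactate dehydrogenase subunit, was listed in 20 Old and 24 Young cells (-0.27) and Hk2, a hexokinase, in 6 and 3 (0.16).

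The Slc25 family was the largest group, with 23 of 47 named genes measured. Of the 23, 17 (73.9%) had a lower mean log2 in Old cells, against 51.1% of all measured genes. By 0.5 or more, 4 (17.4%, against 4.88%) were lower, and the group median was -0.11. Most of the 17 met the mean of 1 FPKM only in Young cells, and most of the 6 higher members only in Old cells. The rule that chose the members therefore set part of these directions. Slc25a17, which carries coenzyme A and related cofactors in peroxisomes rather than mitochondria, had the lowest difference, -1.32. It was listed in 3 Old cells (3.85%, interval 0.80 to 10.8), none above 7.00 FPKM, and in 20 Young cells (24.4%, 15.6 to 35.1), with a median of 84.5 FPKM among them and a highest value of 619 FPKM. Slc25a30, a mitochondrial carrier, was listed in 2 Old cells (2.56%, 0.31 to 8.96) and 18 Young cells (22%, 13.6 to 32.5), a difference of -0.93. For both genes the few listing Old cells make any level within them uncertain. Slc25a36, a pyrimidine nucleotide carrier, was listed in 9 Old (11.5%) and 19 Young cells (23.2%), a difference of -0.55 that came to -0.46 without cells of few genes and -0.48 with cells rescaled to one sum.

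The adenine nucleotide translocases, which exchange ATP for ADP, were listed in the largest shares of cells within the family. Slc25a5 was listed in 21 Old (26.9%) and 31 Young cells (37.8%), a difference of -0.67 (-0.19 by the log2 ratio of mean FPKM), and Slc25a4 in 27 Old (34.6%) and 37 Young cells (45.1%), a difference of -0.33. In cells that listed them the medians were higher in Old cells, 73.2 and 46.2 FPKM for Slc25a5 and 110 and 52.01 FPKM for Slc25a4 in Old and Young cells. Both have near-identical copies elsewhere in the genome, and how shared reads were divided is not given in the sources used here, so their values are uncertain. Slc25a3, the phosphate carrier, was listed in 19 Old (24.4%) and 27 Young cells (32.9%) with a difference of -0.12.

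The remaining 17 members of the family were each listed in at most 6 cells of an age. Slc25a24, an ATP-magnesium and phosphate carrier, was listed in 5 Old and 1 Young cell and had the highest difference of the family, 0.24. Slc25a25, Slc25a26, Slc25a27 and Slc25a37 were listed in 0 Old cells and in 1 to 3 Young cells. The 4 measured partners at mitochondria were Vdac1, Vdac2 and Vdac3, the pores of the outer membrane, and Atp5b, a subunit of ATP synthase. They met the mean of 1 FPKM at both ages and had differences of 0.03, 0.06, 0.27 and 0.31. Of all measured genes 48.9% were higher in Old cells, and all 4 partners lay within 0.5.

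Amino acid carriers held members on both sides. Slc38a2 (SNAT2), which takes up small neutral amino acids with sodium, ranged from 0 to 375 FPKM (median 0.0272) in Old and from 0 to 501 FPKM (median 2.33) in Young cells. It was listed in 35 Old (44.9%, interval 33.6 to 56.6) and 46 Young cells (56.1%, 44.7 to 67.04), a difference of -0.55 with overlapping intervals. By the log2 ratio of mean FPKM it was -0.40. The difference of mean log2 was -0.88 in cells of fewer genes and -0.22 in cells of more genes. Slc1a5 (ASCT2), a glutamine exchanger, was listed in 22 Old (28.2%) and 30 Young cells (36.6%), a difference of -0.60.

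Slc36a2 (PAT2), a proton-coupled carrier of glycine and proline known as a surface marker of brown adipocytes, was the member higher in Old cells by 0.5. It was listed in 12 Old (15.4%, interval 8.21 to 25.3) and 5 Young cells (6.1%, 2.01 to 13.7), a difference of 0.51, and 1 Old cell at 902 FPKM held 74.4% of its summed FPKM. Without cells of high summed FPKM the difference was 0.43 and with all cells rescaled to one sum 0.40, both under 0.5. Slc1a3 (GLAST), a glutamate carrier, was listed in 13 Old and 12 Young cells (0.03), Slc38a6 in 12 and 14 (-0.02) and Slc38a9, the lysosomal arginine sensor, in 5 and 6 (0.07).

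Slc3a2, the heavy chain that brings amino acid exchangers to the cell surface, was above 0 FPKM in all but 15 Old and 12 Young cells and at 1 FPKM or more in 26 (33.3%) and 31 (37.8%). The median over all cells was 0.461 FPKM in Old and 0.771 FPKM in Young cells, just under the level used for listing. Its only measured light chain was Slc7a6, in 5 Old and 4 Young cells. Atf4, the transcription factor of the amino acid response, was listed in 20 Old and 19 Young cells (0.09), and of its targets Ddit3 was listed in 7 Old and 6 Young cells (0.12), while Asns, Trib3 and Chac1 did not reach a mean of 1 FPKM.

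Metal carriers differed little between the ages. Slc39a1 (ZIP1), a zinc importer of the cell surface, was the carrier listed in most Old cells, 47 of 78 (60.3%, interval 48.5 to 71.2), against 49 of 82 Young cells (59.8%, 48.3 to 70.4). Its median was 3.06 FPKM in Old and 3.68 FPKM in Young cells, and its difference of -0.09 turned to 0.11 without cells of few genes. The value sums 2 rows of that name, of which the second was listed in 1 Old and 0 Young cells. All 11 members of the group lay within 0.5, from -0.20 for the magnesium carrier Slc41a3 (1 Old and 4 Young cells) to 0.27 for Slc39a14 (ZIP14, 9 and 5 cells). Slc30a9 was listed in 10 Old and 10 Young cells, Slc30a7, which moves zinc into the Golgi, in 6 and 11, and Slc39a10 in 3 and 0. Slc39a7, the zinc exporter of the endoplasmic reticulum, had means of 1.93 FPKM in Old and 38.04 FPKM in Young cells, but 1 Young cell held 94.8% of the sum and the difference of mean log2 was 0.01. Mt1, the zinc-binding metallothionein, was listed in 34 Old and 35 Young cells (0.07).

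**Figure D3:**
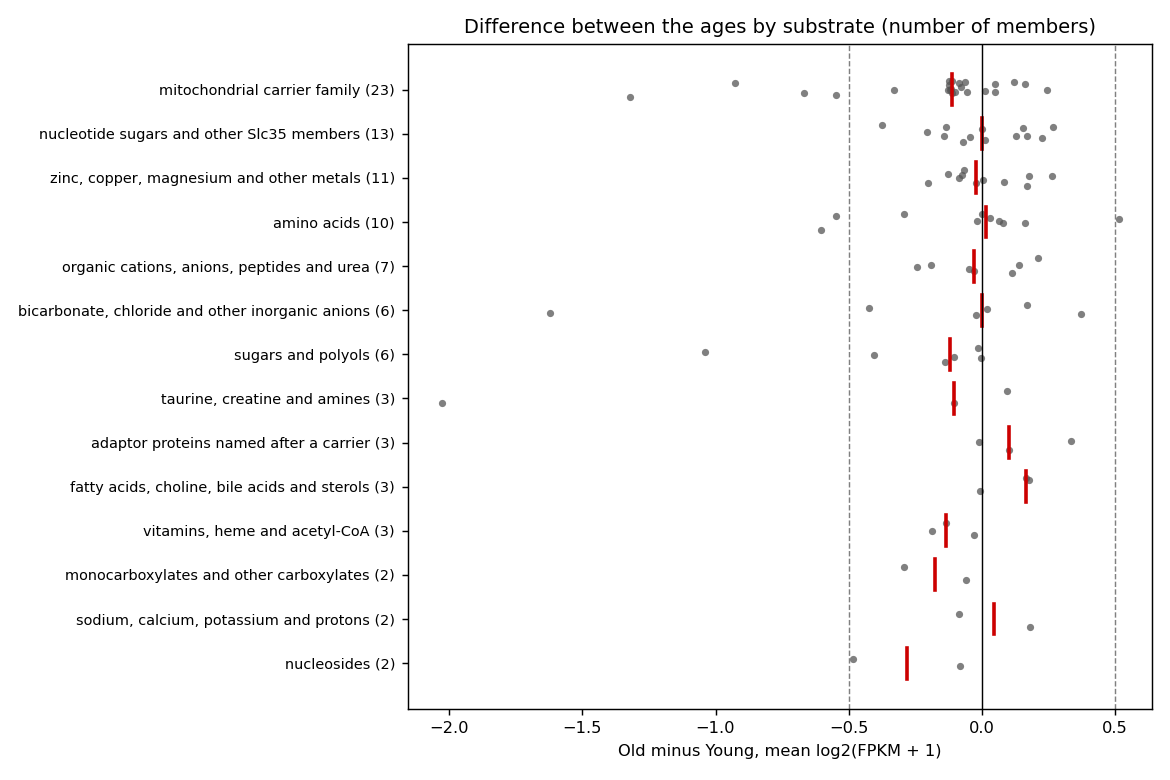
Difference of mean log2(FPKM + 1), Old minus Young, on the x axis for each of the 94 members (points), grouped by substrate with the number of members. Red bars are group medians and dashed lines mark -0.5 and 0.5. In all, 9 members lie at or below -0.5, 4 of them in the mitochondrial carrier family, and 1 amino acid carrier lies above 0.5.

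The Slc35 members, carriers of nucleotide sugars and related donors, were balanced. Of 13 measured, 7 had a higher mean log2 in Old cells and 6 in Young cells, and none differed by 0.5. Slc35b1, which supplies ATP to the endoplasmic reticulum, was listed in 13 Old (16.7%, interval 9.18 to 26.8) and 8 Young cells (9.76%, 4.31 to 18.3), a difference of 0.23. Slc35a2, the UDP-galactose carrier, was listed in 6 Old and 1 Young cell (0.27), whereas Slc35b2, which carries the sulfate donor PAPS, was listed in 4 and 7 (-0.37). The other 12 members were each listed in fewer than 10% of the cells of either age.

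Nucleoside and carboxylate carriers were few. Slc29a1 (ENT1), the equilibrative nucleoside transporter, was listed in 24 Old (30.8%, interval 20.8 to 42.2) and 34 Young cells (41.5%, 30.7 to 52.9), a difference of -0.48, just inside the threshold. Slc28a3, a concentrative nucleoside transporter, was listed in 1 Old and 3 Young cells. Slc16a7 (MCT2), a pyruvate and lactate carrier, was listed in 1 Old and 7 Young cells (-0.29), and Bsg (basigin), the chaperone of lactate carriers, in 18 and 17 (0.03).

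The remaining groups were sparse. Among vitamin and acetyl-CoA carriers the ascorbate transporter Slc23a2 was listed in 4 Old and 8 Young cells (-0.19), the folate transporter Slc19a1 in 3 and 4 (-0.03) and Slc33a1, which brings acetyl-CoA into the endoplasmic reticulum, in 3 and 5 (-0.13). Of the organic ion and peptide carriers, the carnitine transporter Slc22a5 was listed in 6 Old and 9 Young cells (-0.05), Slc22a17 in 6 and 3 (0.21), Slc22a2 in 0 and 5 (-0.24) and Slc22a4 in 0 and 3 (-0.19). Slc27a1 (FATP1), a fatty acid carrier, was listed in 6 Old and 3 Young cells (0.18), the choline carrier Slc44a1 in 2 and 0 (0.17), and Slc24a3, a sodium-calcium and potassium exchanger, in 5 and 3 (0.18). Slc9a9, a sodium-proton exchanger of endosomes, was listed in 4 Old and 6 Young cells (-0.09). Of the adaptors, Slc9a3r1 (NHERF1) was listed in 8 Old and 3 Young cells (0.34) and Slc9a3r2 (NHERF2) in 4 and 6 (-0.01). Of the sodium-potassium pump, which maintains the gradient many of these carriers use, the subunit Atp1b3 was listed in 9 Old and 5 Young cells (0.21).

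In all, 8 members were listed in 0 Old cells and 4 (Slc15a3, Slc22a18, Slc39a10 and Slc44a1) in 0 Young cells. Those are 8.51% and 4.26% of members, and 4.16% and 4.13% of all measured genes were listed in 0 Old and in 0 Young cells. A gene listed in 0 cells of an age has a mean under 1 FPKM there. Each of these 12 members therefore met the rule only through the other age. For a count of 0 the exact 95% upper limit was 4.62% of Old and 4.40% of Young cells, with 3 cells of the group making 3.85% and 3.66%, and none of these 12 members was listed in more than 5 cells of the other age. Of the 34 partner genes looked up, 19 reached a mean of 1 FPKM, of which 12 were higher and 7 lower in Old cells, 0 by 0.5 or more. Of all measured genes 48.9% were higher in Old cells, 3.89% by 0.5 or more, and 4.88% were lower by 0.5 or more. With 19 genes at such shares, a count of 0 says little about the partners.

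A cell listed a median of 8 of the 94 members in Old (quartiles 5 and 11, range 0 to 25) and 10 in Young cells (8 and 14, range 0 to 25). The number followed the number of genes a cell listed, with a Spearman correlation of 0.78 over 78 Old and 0.79 over 82 Young cells, and the members are themselves among the genes counted. Members made up a median of 0.865% of the listed genes of an Old cell and 0.996% of those of a Young cell.

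**Figure D4:**
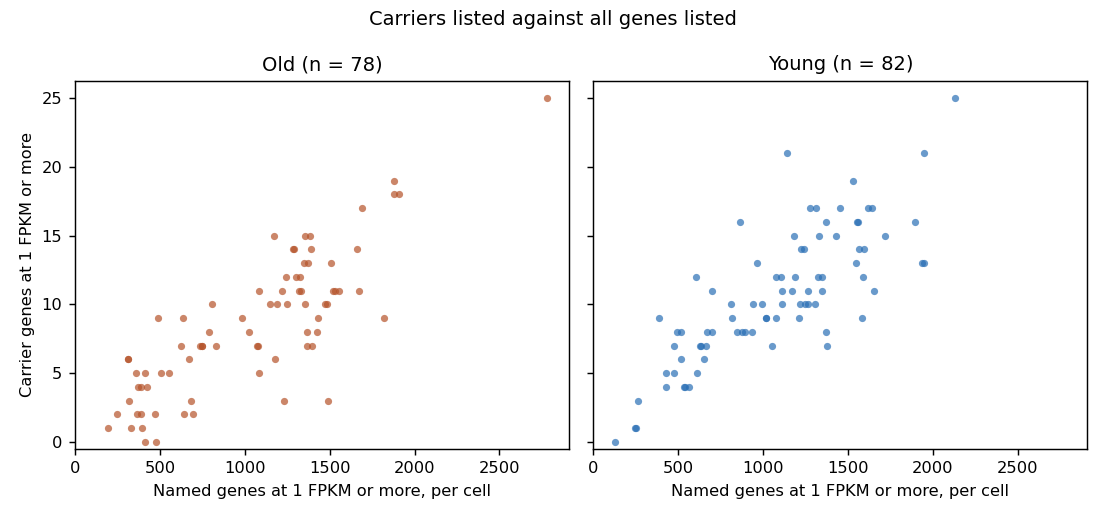
Each point is 1 cell, with the number of named genes at 1 FPKM or more on the x axis and the number of the 94 members at that level on the y axis, Old cells in the left and Young cells in the right panel. In both panels cells with more genes list more carriers, with medians of 8 in Old and 10 in Young cells.

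Some of the members lowest in Old cells were listed by the same Young cells. Of the 57 Young cells that listed Slc6a6, 38 (66.7%) also listed Slc26a7 and 39 (68.4%) the Mrps6 and Slc5a3 row, against 7 (28%) and 9 (36%) of the 25 Young cells without it. Slc39a1, which 47 Old and 49 Young cells listed in all, was listed in 41 of those 57 Young cells (71.9%) and in 8 of the 25 (32%). The cells with Slc6a6 also listed more genes, with a median of 1216 against 665, and the part of that difference in the overlap was not tested. In Old cells 4 of 21 cells with Slc6a6 (19%) and 11 of 57 without it (19.3%) listed Slc26a7, whereas the Mrps6 and Slc5a3 row was listed in 10 of the 21 (47.6%) and 13 of the 57 (22.8%). Slc6a6, Slc26a7, the Mrps6 and Slc5a3 row and Slc25a17 were picked, after their values were seen, as the members lowest in Old cells. At least 3 of these were listed in 5 Old cells (6.41%) and 33 Young cells (40.2%), and none in 37 Old and 8 Young cells. The lower counts in Old cells follow from that choice.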

How the data were processed

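RNA of 160 single cells (78 Old, 82 Young) was measured after sorting, Fluidigm C1 capture and SMARTer amplification, per the labels' protocols. The authors deposited FPKM for each gene and cell. Cufflinks 2.1.1 and build mm9 are named in the submitters' processing notes. Not given in the sources used here are the aligner, the use of strand, filters and read numbers, so the depth is unknown and no count model was used. Rows without a gene name (7751 of 31199) were dropped, and rows of one name were summed, leaving 22866 names. Values were compared as log2(FPKM + 1), which understates the change of low genes. Measured genes had a mean of 1 FPKM in either age, and a cell listed a gene from 1 FPKM.

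Cells were grouped by labelled age. Replicate numbers in the labels only name cells. No test was run, since each age is 1 sample. The members, the substrate and partner lists, the measure and the threshold of 0.5 were chosen with earlier results of these data known. Named were the 23 members listed in 25% of the cells of an age, past 0.5, or highest in mean log2 in their substrate group, together with partner genes. Other members are given as examples of their group, chosen after their values were seen. Values of some single genes are not reported here, although counts over the lists include all members. The 3 adaptor proteins were set apart after the table was seen. Python 3.11.15, pandas 2.3.3, numpy 2.4.6 and scipy 1.17.1 were used. The calculation of the difference was checked on resampled Young cells, without those of high summed FPKM. Known changes were put only into genes listed in 25% or more of these cells, so the check does not cover changes of sparser members. Sequences came from RefSeq (GRCm38.p6), matched by symbol.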

Additional observations from a re-analysis of the deposited data

How the results depend on the processing

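The count of members lower in Old cells by 0.5 or more was 9 and stayed between 8 and 11 in 7 of 10 alternatives. Some of these 7 changed only which members were counted, so the count could hardly move while the share did. The count of 9 was 9.57% of 94 members, 4.11% of 219 with no filter and 34.6% of 26 at a mean of 5 FPKM. The count was 14 with a pseudocount of 0.1, 41 by the log2 ratio of mean FPKM and 4 at a threshold of 1. The count higher by 0.5 or more was 1. It was 4 with a pseudocount of 0.1, 30 by the log2 ratio of means, 8 by the log2 ratio of means without the highest and lowest 5% of cells, and 0 without cells of high summed FPKM, with cells rescaled to one sum, or at a threshold of 1. Members with a higher mean log2 in Old cells numbered 36 of 94 (38.3%), 107 of 219 (48.9%) with no filter on low values and 8 of 26 (30.8%) at a mean of 5 FPKM. The causes were not tested.

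The Slc6a6 difference ran from -3.34 with a pseudocount of 0.1 to -1.84 with cells rescaled to one sum, and stayed below -0.5 in all 6 alternatives run. Its share was 14.1% of Old cells at 5 FPKM, and 53.8% of Old and 86.6% of Young cells at any FPKM above 0. Among the other 22 named members, 97 of 132 differences stayed on the same side of 0.5 with the same sign, 8 past the threshold came under it, 12 went past it and 15 small ones changed sign. The Mrps6 and Slc5a3 row had a log2 ratio of means of -0.02. Leaving out cells of few genes kept 58 Old and 68 Young cells, and leaving out cells of high summed FPKM kept 69 and 69. No paired analysis was possible because the replicate numbers only name cells and each age is 1 sample. Sparse listing limits members found in few cells.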

Other observations

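Several carriers that supply glucose, lactate and amino acids to many cell types did not reach the mean of 1 FPKM. Slc2a1 (GLUT1), the widespread glucose importer, was listed in 2 Old and 0 Young cells, with means of 0.0878 and 0.00214 FPKM. The lactate carrier Slc16a1 (MCT1) was listed in 1 Old and 0 Young cells, and Slc16a3 (MCT4) in 0 and 0. Of the light chains that pair with Slc3a2, Slc7a5 was listed in 0 Old and 0 Young cells, Slc7a7 in 0 and 1, Slc7a8 in 0 and 1, Slc7a10 in 2 and 1 and Slc7a11 in 1 and 0. These genes were picked for their known roles, and for a count of 0 the exact 95% upper limit was 4.62% of Old and 4.40% of Young cells listing the gene at that level.

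The ratio of mean FPKM and the difference of mean log2 had opposite signs in 11 of the 94 members (11.7%) and in 14.6% of all measured genes. For Slc25a4 the log2 ratio of means, Old over Young, was 0.08 and the difference of mean log2 -0.33.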
